A study of Mus musculus with 22 samples.

Results

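Tuft cells and enteroendocrine cells (EECs) sorted from the crypts of the mouse colon were compared gene by gene, in the 5 tuft and 2 EEC libraries of the 22 RNA-seq libraries of the study. The 7 libraries were taken by the cell type in their titles, and every gene of the count files entered the comparison. The other 15 libraries were 3 of stem cells (Stem), 3 of absorptive progenitors (AbsPro), 4 of secretory progenitors (SecPDG) and 5 of enterocytes. All groups came from untreated wild type male C57BL/6N mice of 5 to 7 weeks, from the whole colon between caecum and rectum. Tuft cells were sorted as live Epcam+ cells lacking Cd31 and Cd45, with Ckit and high Cd24. EECs were sorted from the same live Epcam+ population as Cd24+ cells with low or no Cd44. Cells of several sorts were combined until a library had at least 2500 cells, so that each tuft and EEC library is a mixture of mice and a mean over all cells that met the gate, while each Stem and AbsPro library came from a single mouse. The labels describe the libraries of a cell type as biological replicates.

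Tuft cells and EECs are rare, mature cells of the intestinal epithelium that sense the contents of the gut lumen. Tuft cells depend on the transcription factor Pou2f3, carry a taste-like cascade that ends in the channel Trpm5, make eicosanoids and acetylcholine, and alert type 2 immune cells. EECs depend on Neurog3 and Neurod1, store peptide hormones or serotonin in dense core granules with granins, and release them by calcium-triggered exocytosis. Most EECs of the colon are enterochromaffin cells, which make serotonin, together with L cells, which make the glucagon-like peptides and peptide YY.

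The EEC libraries were uneven. Counts on genes were 9930648 to 20892532 in tuft libraries and 4122122 and 13132315 in EEC libraries 1 and 2, within 4122122 to 22462518 over the 22 libraries. The share of counted records that fell on no gene was 54.1% to 74% in tuft libraries, 91.6% in EEC library 1 and 70.7% in EEC library 2. Reads on 1500 genes of olfactory, vomeronasal, keratin-associated and Obox families, which the colon is not known to transcribe, took 176.4 to 1463.2 CPM in tuft libraries, 6916.6 in EEC library 1 and 537.5 in EEC library 2. EEC library 1 therefore held the fewest gene counts and the highest background of all 22 libraries. From these families a background per gene was estimated by exon length, and it is given below as a percent of a gene's mean. Spearman's rank correlation over 22781 genes was 0.87 to 0.969 between tuft libraries, 0.696 between the EEC libraries and 0.666 to 0.85 between tuft and EEC libraries. The tuft and SecPDG count files have names of a different form from the rest, and no label gives a batch, so that such a batch and the cell type cannot be told apart.

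The labels were checked against marker genes, as sums of normalized counts, which are counts scaled to the mean library by edgeR's TMM method. The 7 tuft markers measured summed to 27926 to 75223 in tuft libraries and to 4510 and 9575 in EEC libraries 1 and 2. The 8 EEC markers summed to 1987 to 28638 in tuft libraries, with library 5 the highest, and to 610733 and 1708775 in EEC libraries. Both labels were thus borne out by their own markers. The tuft libraries also held goblet cell markers, summing to 761386 to 1157576, beside 38795 and 65296 in the EEC libraries. The mean sums were 1521936 in SecPDG, 424804 in enterocytes, 189127 in AbsPro and 25990 in stem cells. The EEC libraries held enterocyte markers, 24540 in library 1 and 169970 in library 2, beside 6454 to 17342 in tuft libraries. The mean sums were 102843 in AbsPro, 76744 in enterocytes, 23030 in stem cells and 15849 in SecPDG. Markers of stem cells (19530 to 33453 against 3758 and 2907) and of proliferation (14705 to 27662 against 2258 and 1591) were higher in every tuft library than in either EEC library. Summed immune markers were 441 to 975 in tuft libraries and 1828 and 296 in EEC libraries, stromal markers 232 to 900 against 3807 and 2396, and endothelial markers 244 to 756 against 1964 and 1377. Whether these transcripts came from other cells in the gates was not tested, nor was the part of such cells in the results below. In bulk samples fewer cells of a type and less RNA per cell cannot be told apart.

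**Figure D1:**
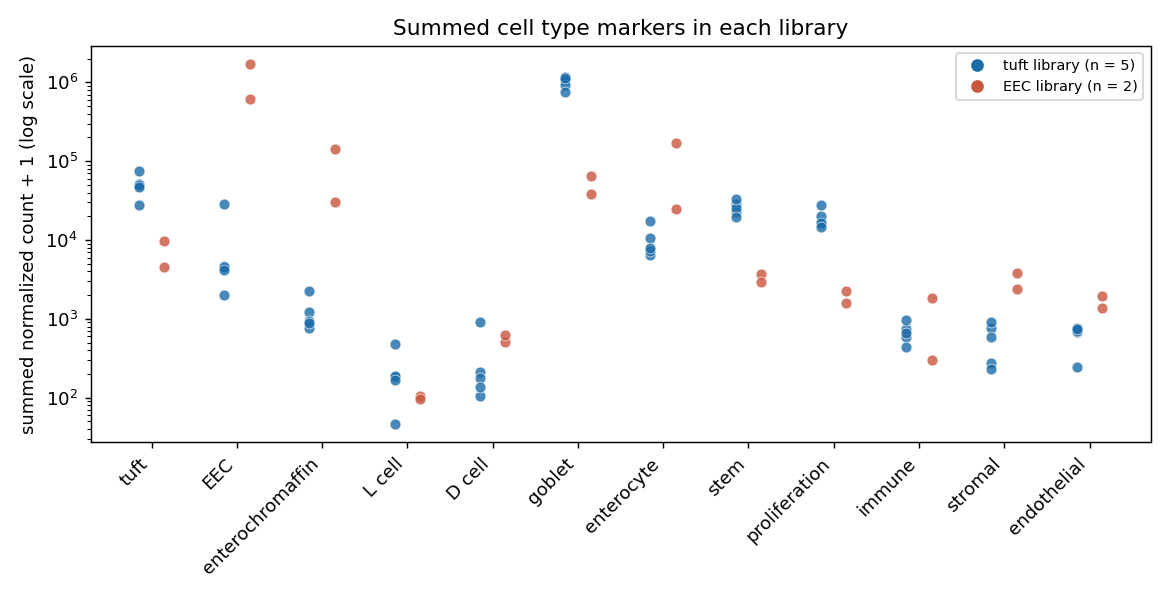
Summed normalized counts plus 1 (log scale) of the markers of 12 cell types or states, 1 point per library, for 5 tuft and 2 EEC libraries. Tuft and EEC markers separate the groups, goblet markers lie between 761386 and 1157576 in tuft libraries, and enterocyte markers reach 169970 in EEC library 2.

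Of 22781 genes tested, 1209 (5.31%) were called, 805 higher in tuft cells (3.53%) and 404 higher in EECs (1.77%). To be called, a gene needed an adjusted p (Benjamini-Hochberg) under 0.01 in edgeR's quasi-likelihood F test, and 50 or more normalized counts on average over the 22 libraries. Only 13381 genes had that mean, so the shares of all genes tested are lower than those among genes that could be called. The smallest log2 fold change among the calls was 1.2 in size, and the median size was 2.32 for genes higher in tuft cells and 2.98 for genes higher in EECs. Fold changes are tuft minus EEC throughout, and the SE is the size of the log2 fold change divided by the square root of F. The median log2 fold change was -0.11 over all genes tested and 0.21 over the 13381 genes with a mean of at least 50. With DESeq2's size factors this median was -0.27, and the calls were 866 higher in tuft cells and 978 higher in EECs, so that the share of calls higher in tuft cells was 47% in place of 66.6%. With 2 EEC libraries, each carried much of the result. Without EEC library 2 the calls were 2573 and 160, and without EEC library 1 they were 1070 and 650. The calls that held in every fit that left out 1 of the 7 libraries were 448 of the 805 and 113 of the 404.

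Most genes that were higher in tuft cells than in EECs were not at their highest in tuft cells. Of the 805, 426 (52.9%) had their highest mean in SecPDG, 213 (26.5%) in stem cells and 108 (13.4%) in tuft cells. Of the 404 genes higher in EECs, 325 (80.4%) had their highest mean in EECs, 43 in enterocytes and 35 in AbsPro.

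**Figure D2:**
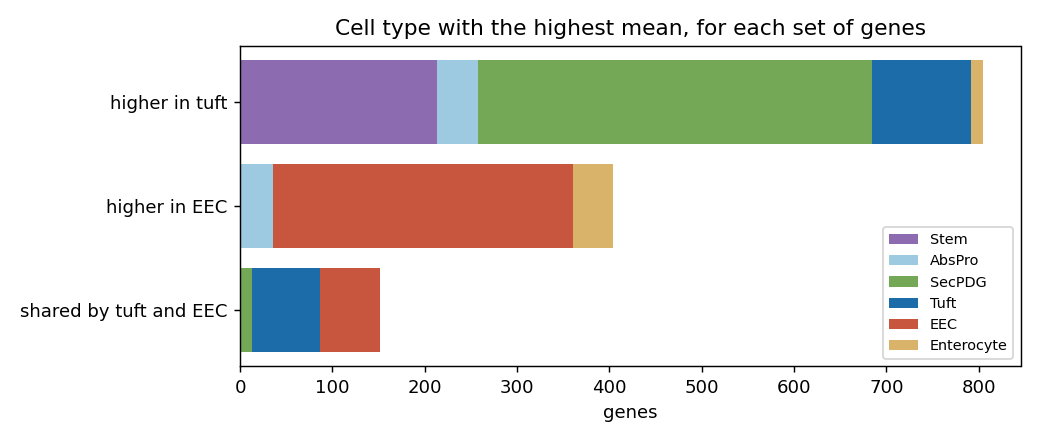
Number of genes (x axis) by the cell type with the highest mean, for the 805 genes higher in tuft cells, the 404 higher in EECs and the 151 shared by both. SecPDG and stem cells hold 426 and 213 of the first set, EECs hold 325 of the second, and tuft cells and EECs hold 74 and 64 of the third.

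The tuft cell markers had the highest median fold change of the 19 lists. Of 28 tested, 12 were called higher in tuft cells (42.9%) and none in EECs, against 3.53% and 1.77% of all genes tested. All 28 had a log2 fold change above 0, and the median was 2.22. In 24 of the 28 the tuft and EEC libraries did not overlap, against 13.5% of all genes tested with every tuft library above both EEC libraries and 10.5% with every EEC library above all tuft libraries. Dclk1, a microtubule-associated kinase and the usual marker of tuft cells (chr3:55242364-55539068, plus strand, mm10), had normalized counts of 25344, 12392, 24522, 32772 and 20703 in tuft libraries 1 to 5 and 1884 and 4163 in EEC libraries 1 and 2, with a log2 fold change of 2.94 ± 0.70 (SE; adjusted p = 0.00429). Its lowest tuft library lay above its higher EEC library, and without EEC library 1 it was no longer called. Avil, an actin-severing protein of the apical tuft (chr10:127000709-127020994, plus strand), had 7255, 4454, 6200.1, 12675 and 7713 in the tuft libraries and 726 and 774 in the EEC libraries, with a log2 fold change of 3.35 ± 0.70 (SE; adjusted p = 0.00118). Both EEC libraries held about the same amount of Avil, far below every tuft library. Per kilobase of exon, the mean level in tuft cells was 1682 for Dclk1, 2347 for Avil and 2493 for Trpm5. Pik3r5, a regulator of PI3 kinase gamma, had 11187, 5002, 9736, 14311 and 8468 in the tuft libraries and 1360.2 and 1392 in the EEC libraries, with a log2 fold change of 2.82 ± 0.64 (SE; adjusted p = 0.00296). Vav1, an exchange factor for small GTPases, and Inpp5d, the phosphatase SHIP1, were higher in tuft cells by a log2 fold change of 2.38 (adjusted p = 0.000278) and a log2 fold change of 3.09 (adjusted p = 0.00135). Rgs13, which turns off G protein signals, was higher by a log2 fold change of 2.87 (adjusted p = 0.000367). Lrmp, Sh2d7, Fyb, Kctd12, Siglecf and Tmem176b were called as well. Of the 12 calls 7 held without each library. Inpp5d lost the call without EEC library 2 and Fyb without EEC library 1, while Sh2d7 lost it without EEC library 1 or tuft library 1, 3 or 5 and Siglecf without EEC library 1 or tuft library 1, 3, 4 or 5. Over the 12 called genes the EEC mean was 8.84% to 21.8% of the tuft mean, with a median of 13.9%. Bmx and Alox5ap, at log2 fold changes of 2.72 and 1.29, were not called. In a fit of the tuft and EEC libraries alone 5 markers were called, and with DESeq2's size factors Pik3r5, Inpp5d, Fyb and Siglecf were not.

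**Figure D3:**
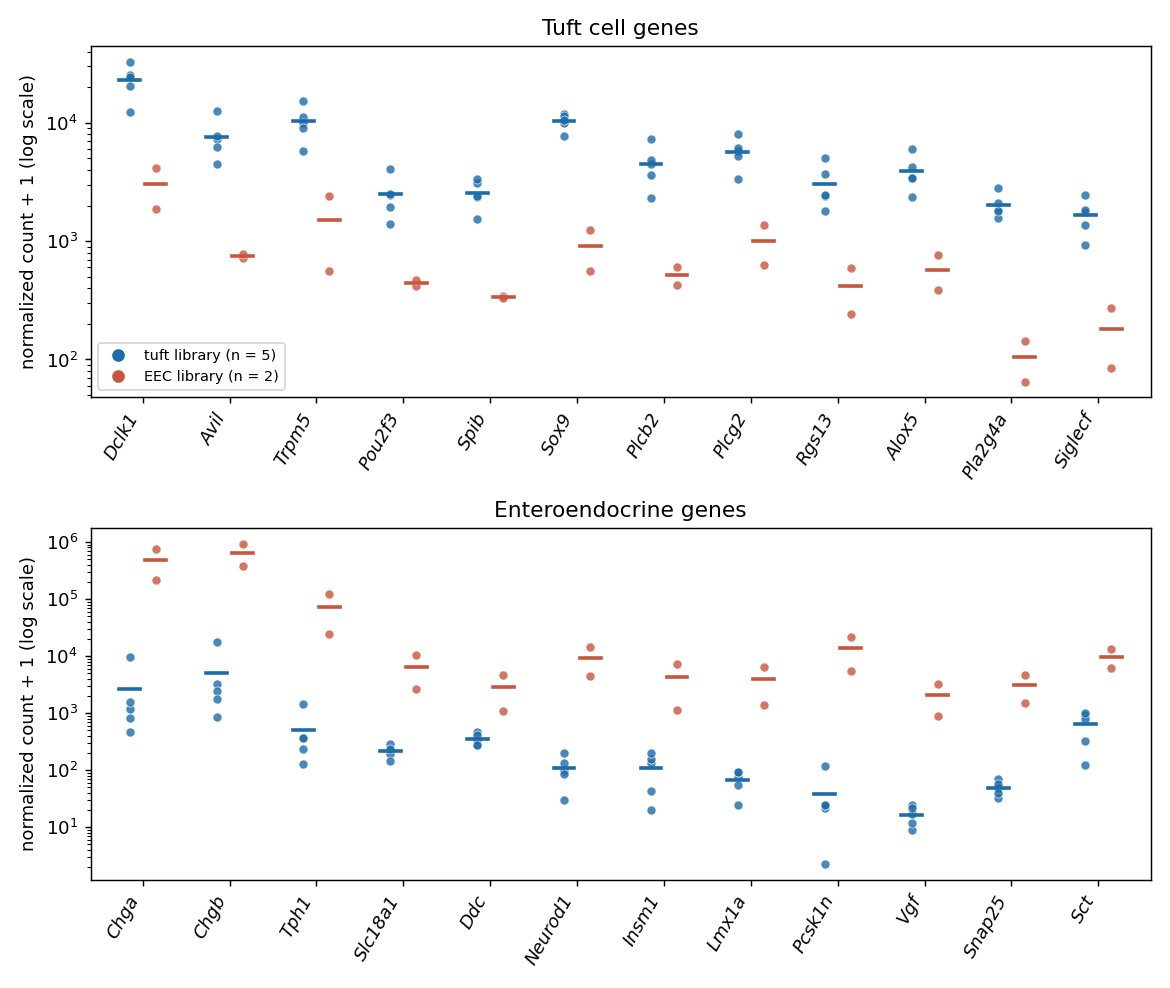
Normalized count plus 1 (log scale) in each of 5 tuft (blue) and 2 EEC (red) libraries for 12 tuft cell genes and 12 enteroendocrine genes, with a bar at each mean. Every tuft library lies above both EEC libraries in the upper panel, and every EEC library lies above all tuft libraries in the lower panel.

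Among 12 transcription factors of tuft cells, 4 were called higher in tuft cells (33.3%, against 3.53% of all genes tested), and the median log2 fold change was 2.00. With DESeq2's size factors 2 were called, without Spib and Ascl2. Pou2f3, the factor that tuft cells cannot form without (chr9:43123939-43210369, minus strand), had normalized counts of 1946, 1408, 2479, 4070.3 and 2528 in tuft libraries 1 to 5 and 418 and 464 in EEC libraries 1 and 2. Every tuft library lay above both EEC libraries, but the log2 fold change of 2.49 ± 0.72 (SE; adjusted p = 0.0219) missed the threshold. Spib, an Ets factor (chr7:44525993-44532071, minus strand), had 2373, 1535, 3093, 3380 and 2429 in the tuft libraries and 340.1 and 327 in the EEC libraries, with a log2 fold change of 2.94 ± 0.69 (SE; adjusted p = 0.00382). The EEC libraries held nearly equal Spib counts, and the call was lost when either was left out. Sox9, a factor of crypt base and tuft cells, had 11965, 7746, 11334, 9900.5 and 10608 in the tuft libraries and 559.8 and 1250.2 in the EEC libraries, with a log2 fold change of 3.51 ± 0.54 (SE; adjusted p = 2.85e-05). Sox9 was almost as high in SecPDG, at a mean of 8109. Runx1 was higher by a log2 fold change of 2.09 (adjusted p = 0.00037), and Ascl2, a stem cell factor, by a log2 fold change of 4.00 (adjusted p = 0.00913). The call of Ascl2 was lost without tuft library 1, 3 or 5 or EEC library 2, and its log2 fold change ran from 2.94 to 10.95 over the fits without 1 library. Gfi1b, a repressor named as a tuft cell marker, spanned 31, 92, 437, 417 and 251 in tuft libraries and overlapped the 136 and 15.4 of the EEC libraries. Sox4 and Nfatc1 overlapped between the groups too.

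The cascade that tuft cells share with taste cells runs from Gnat3, the G protein alpha subunit gustducin, through Plcb2 and inositol trisphosphate receptors to Trpm5. Of 16 genes tested, 2 were called higher in tuft cells (12.5%) and 1 in EECs (6.25%), against 3.53% and 1.77% of all genes tested. The median log2 fold change was 0.60. Plcb2, the phospholipase of the cascade (chr2:118707517-118728438, minus strand), had normalized counts of 4458, 2329.8, 3606, 7312 and 4836 in tuft libraries 1 to 5 and 422 and 609 in EEC libraries 1 and 2, with a log2 fold change of 3.13 ± 0.58 (SE; adjusted p = 0.000337). Its lowest tuft library was several times its higher EEC library. Plcg2, a second phospholipase C, had 5835, 3375, 5224, 8068 and 6098 in the tuft libraries and 625 and 1382 in the EEC libraries, with a log2 fold change of 2.51 ± 0.45 (SE; adjusted p = 0.000232). Trpm5 (chr7:143069153-143094642, minus strand) had 11135, 5818, 9912, 15404 and 9131 in the tuft libraries and 564 and 2429.8 in the EEC libraries. The groups did not overlap, yet the log2 fold change of 2.78 ± 0.73 (SE; adjusted p = 0.0103) lay just outside the threshold, and the value was 4.19 (adjusted p = 0.00157) without EEC library 2 and 2.21 (adjusted p = 0.056) without EEC library 1. Gnat3 had 970, 548, 1002, 1339 and 995 in the tuft libraries and 139.5 and 323 in the EEC libraries, with a log2 fold change of 2.07 ± 0.75 (SE; adjusted p = 0.0816), and Gng13, its gamma subunit, had 46.4, 151, 139, 281 and 250.2 in tuft libraries and 0 counts in both EEC libraries, at least 75.3-fold lower, without passing the test (adjusted p = 0.0174). Itpr2, a receptor for inositol trisphosphate, had a log2 fold change of 1.36 ± 0.41 (SE; adjusted p = 0.0266) and was not called. Itpr3, another, was higher in EECs, at 7476 and 38998 against 4111, 3150, 4306, 3032 and 4892 in tuft libraries, with a log2 fold change of -2.58 ± 0.41 (SE; adjusted p = 4.63e-05), and the call was lost without EEC library 2. Tas1r3, a subunit of the sweet and umami receptors, had 56.8, 160, 211, 298 and 202 in the tuft libraries and 126 and 70.5 in the EEC libraries, which overlap, and an estimated background of 4.88% of the tuft mean and 22.1% of the EEC mean.

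Eicosanoid synthesis had 2 of 20 genes called higher in tuft cells (10%, against 3.53% of all genes tested) and none in EECs, with a median of 0.91. Pla2g4a, which frees arachidonic acid from membranes, had normalized counts of 1839, 1558, 1787, 2087 and 2839 in tuft libraries 1 to 5 and 143 and 64.1 in EEC libraries 1 and 2, with a log2 fold change of 4.30 ± 0.48 (SE; adjusted p = 1.84e-07). Its tuft libraries lay within a narrow range well above both EEC libraries, and its mean in SecPDG, 1796, was close to that in tuft cells. Alox5, the 5-lipoxygenase of leukotriene synthesis, had 3439, 2359, 4247, 6022 and 3427 in the tuft libraries and 382 and 767 in the EEC libraries, with a log2 fold change of 2.76 ± 0.59 (SE; adjusted p = 0.00147). In SecPDG its mean was 45.1, and the call was lost without EEC library 1. Ptgs1, the constitutive cyclooxygenase, had 1218, 954, 1614, 2296 and 1258 in the tuft libraries and 164 and 269 in the EEC libraries, with a log2 fold change of 2.76 ± 0.81 (SE; adjusted p = 0.0233). Hpgds, which makes prostaglandin D2, had 1104, 792, 1205, 2752 and 1478 in the tuft libraries and 369 and 344 in the EEC libraries, with a log2 fold change of 2.04 ± 0.59 (SE; adjusted p = 0.0212). Every tuft library lay above both EEC libraries in both genes, and neither passed the test. Ltc4s, the leukotriene C4 synthase, likewise had a log2 fold change of 2.24 (adjusted p = 0.106) without overlap.

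Of 20 genes of type 2 immune signals and receptors, 3 were called higher in tuft cells (15%, against 3.53% of all genes tested). None was called in EECs, and the median was 0.62. Il13ra1, a subunit of the receptor for interleukins 4 and 13, had normalized counts of 4858, 2963, 3756, 6121 and 5096 in tuft libraries 1 to 5 and 149 and 718 in EEC libraries 1 and 2, with a log2 fold change of 3.39 ± 0.55 (SE; adjusted p = 5.88e-05). Il4ra, its partner, had 1636, 1372, 1720.3, 1520.4 and 1579 in the tuft libraries and 294 and 609 in the EEC libraries, with a log2 fold change of 1.79 ± 0.37 (SE; adjusted p = 0.00101). Both receptor chains were separated without overlap. Ccl9, a chemokine, was higher in tuft cells by a log2 fold change of 4.40 (adjusted p = 4.32e-06). Of the 3 called genes, 2 had their highest mean in SecPDG, Ccl9 and 1 of the receptor chains, and 1 had it in tuft cells. Il25, the cytokine by which tuft cells alert the immune system, had only 49, 42.7, 24, 23.1 and 30.9 in the tuft libraries and 7.6 and 0 in the EEC libraries, with a log2 fold change of 3.16 (adjusted p = 0.374). Its background was estimated at 8.06% of the tuft mean and at 171% of the EEC mean, so that no level of Il25 above background was seen in EECs.

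Of 9 acetylcholine genes none was called, and the median was 0.20. Chat, the enzyme that makes acetylcholine, had normalized counts of 671, 376, 418, 1539 and 579.9 in tuft libraries 1 to 5 and 642 and 241 in EEC libraries 1 and 2. EEC library 1 lay within the range of the tuft libraries and EEC library 2 below all of them, with a log2 fold change of 0.70 ± 0.78 (SE; adjusted p = 0.602). Chat was 61.6% as high in EECs as in tuft cells by the means, and 9.2 normalized counts on average in SecPDG. Slc5a7 and Slc18a3, the transporters for choline and for acetylcholine, had fitted log2 fold changes of -2.61 and -0.95 and were not called.

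Transcription factors of the endocrine lineage were higher in EECs for 6 of 25 genes (24%, against 1.77% of all genes tested) and higher in tuft cells for 1, with a median of -1.35. Neurod1, which drives endocrine differentiation (chr2:79452521-79456751, minus strand), had normalized counts of 133, 29.3, 94.8, 86.3 and 202 in tuft libraries 1 to 5 and 4459 and 14157 in EEC libraries 1 and 2, with a log2 fold change of -6.40 ± 0.57 (SE; adjusted p = 2.99e-09). Even the lower EEC library stood far above the highest tuft library. Insm1, a repressor in endocrine cells, had 132, 18.7, 156, 41.3 and 196 in the tuft libraries and 1146 and 7282 in the EEC libraries, with a log2 fold change of -5.27 ± 0.64 (SE; adjusted p = 6.36e-07). Lmx1a, which acts in enterochromaffin cells, had 23.2, 74.7, 54.8, 92.4 and 90.2 in the tuft libraries and 1396 and 6411 in the EEC libraries, with a log2 fold change of -5.86 ± 0.63 (SE; adjusted p = 7.31e-08). Rfx6, Myt1 and Pax4 were higher in EECs by a log2 fold change of -4.69 (adjusted p = 0.000281), a log2 fold change of -5.55 (adjusted p = 5.1e-09) and a log2 fold change of -3.70 (adjusted p = 0.00229). The 6 genes were at 1.17% to 7.66% of their EEC mean in tuft cells, and all but Pax4 held the call without each library. Isl1, a factor of other endocrine cell types, was not called, at a log2 fold change of -2.20 (adjusted p = 0.28). Neurog3, which starts the lineage in progenitors, was low in all 7 libraries, at 196, 30.7, 120.2, 26.7 and 116 in the tuft libraries and 47.8 and 0 in the EEC libraries. The gene called in the other direction was Atoh1, the factor of all secretory cells, at 4383, 3738, 3068, 2665 and 5651 in tuft libraries 1 to 5 and 669 and 24.4 in EEC libraries 1 and 2, with a log2 fold change of 3.50 ± 0.71 (SE; adjusted p = 0.000907). Its mean was 7455 in SecPDG, and with DESeq2's size factors it was not called.

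Of 14 genes of serotonin synthesis, storage and removal, 6 were called higher in EECs (42.9%) and none in tuft cells. The shares of all genes tested were 1.77% and 3.53%, and the median was -1.72. Tph1, the rate-limiting enzyme (chr7:46644641-46672537, minus strand), had normalized counts of 361, 125, 231, 358 and 1459 in tuft libraries 1 to 5 and 24815 and 120801 in EEC libraries 1 and 2, with a log2 fold change of -7.16 ± 0.76 (SE; adjusted p = 6.43e-08). Tuft library 5 held several times more Tph1 than the other tuft libraries and still lay far below both EEC libraries. Slc18a1, which loads serotonin into granules, had 284, 221, 194, 141 and 232 in the tuft libraries and 2659 and 10253 in the EEC libraries, with a log2 fold change of -4.91 ± 0.46 (SE; adjusted p = 4.74e-09). Ddc, the decarboxylase of the second step, had 460.5, 273, 333, 272 and 418 in the tuft libraries and 1069.8 and 4644 in the EEC libraries, with a log2 fold change of -3.02 ± 0.39 (SE; adjusted p = 1.43e-06). These 3 kept the call without each library, and Gch1, Qdpr and Maoa lost it without EEC library 2, Qdpr also without tuft library 2. Gch1 and Qdpr make and recycle the cofactor of Tph1. Maoa, which breaks serotonin down, had 914, 736, 832, 678 and 1629 in the tuft libraries and 367 and 10259 in the EEC libraries, so that EEC library 1 lay below every tuft library and library 2 above, and without EEC library 2 its log2 fold change turned to 1.39. Slc6a4, the serotonin transporter, was not called (log2 fold change of -1.24, adjusted p = 0.213).

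Granins and prohormone processing had the lowest median fold change of the 19 lists. Of 18 genes, 10 were called higher in EECs (55.6%) and none in tuft cells, against 1.77% and 3.53% of all genes tested. The median was -4.63, and all 10 held without each library. In tuft cells the 10 genes were at 0.277% to 6.90% of their EEC mean, with a median of 1.46%. Chga, a granule matrix protein (chr12:102554969-102565028, plus strand), had normalized counts of 836, 464, 1170, 1549.6 and 9478 in tuft libraries 1 to 5 and 218902 and 757786 in EEC libraries 1 and 2, with a log2 fold change of -7.50 ± 0.90 (SE; adjusted p = 5.1e-07). Chgb (chr2:132781278-132795079, plus strand) had 3244, 858, 2460.3, 1737 and 17422 in the tuft libraries and 382527 and 918469 in the EEC libraries, with a log2 fold change of -6.98 ± 0.86 (SE; adjusted p = 6.89e-07). Tuft library 5 held most of the Chga and Chgb seen among tuft libraries. Per kilobase of exon the mean level in EECs was 259344 for Chga and 237408 for Chgb. Pcsk1n, an inhibitor of prohormone convertase 1, had 20.6, 1.3, 24, 23.1 and 119 in the tuft libraries and 5443 and 21809.5 in the EEC libraries, with a log2 fold change of -8.45 ± 0.78 (SE; adjusted p = 4.12e-09). Vgf, another granule protein, had 23.2, 8, 10.7, 15.8 and 20.3 in the tuft libraries and 873 and 3285 in the EEC libraries, with a log2 fold change of -7.04 ± 0.73 (SE; adjusted p = 5.68e-08), and its background was estimated at 48.6% of the small tuft mean. Scg3, Scg5, Cpe, Pam, Resp18 and Ptprn, of sorting, trimming, amidation and the granule membrane, were higher in EECs by log2 fold changes of -3.86 to -6.46. Pcsk1, the convertase itself, overlapped between the groups at 223, 465, 402, 519 and 1071 in the tuft libraries and 764 and 2258 in the EEC libraries, with a log2 fold change of -1.49 ± 0.41 (SE; adjusted p = 0.0132). Cpd and Furin, which act along the general secretory pathway, had log2 fold changes of 2.12 and 0.85 and were not called.

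The promoter of Chgb is shown because it holds the palindrome TGACGTCA, the cyclic AMP response element (CRE), in a gene of this set. The stretch is at chr2:132781545-132781602 on the plus strand (RefSeq, GRCm38.p6), ends 40 bases before the RefSeq start site, which lies downstream of the outermost GENCODE start given for the gene above, and has the palindrome in capitals.
Chgb: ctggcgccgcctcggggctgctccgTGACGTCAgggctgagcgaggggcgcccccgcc
Promoters were 250 bases before to 50 after the start, searched on both strands, with the motifs chosen after results of these data were known. TGACGTCA was found in 3 of 15 granin and processing promoters (20%: Chgb, Scg2 and Pcsk1), in 1 of the 8 among the called genes, in 13 of 305 promoters of genes higher in EECs (4.26%) and in 549 of 27025 promoters of all genes (2.03%).

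Peptide hormones were mostly not called. Of 29 genes, 2 were called higher in EECs (6.9%) and 1 in tuft cells (3.45%), against 1.77% and 3.53% of all genes tested. The median was -0.81. Sct, secretin, had normalized counts of 122, 916, 326, 796 and 997 in tuft libraries 1 to 5 and 6285 and 13108 in EEC libraries 1 and 2, with a log2 fold change of -3.94 ± 0.52 (SE; adjusted p = 2.45e-06). Both EEC libraries were above all tuft libraries, and the mean was 2071 in SecPDG. Iapp, amylin, had 0, 12, 0, 4.9 and 17.7 in the tuft libraries and 701 and 1408 in the EEC libraries, with a log2 fold change of -7.19 ± 1.09 (SE; adjusted p = 3.93e-05), a call lost without EEC library 2. Tac1, the substance P precursor of enterochromaffin cells, had 0, 25.3, 13.4, 12.2 and 58.3 in the tuft libraries and 95.5 and 853 in the EEC libraries, with a log2 fold change of -4.42 ± 1.23 (SE; adjusted p = 0.0155). The L cell hormones were low in the EEC libraries. Gcg had 2 counts over both EEC libraries and 572 over the 5 tuft libraries, a ratio of 88.2 with a 95% counting interval of 24.4 to 728, which covers counting error only, and its mean was 2829 in enterocyte libraries. The tuft libraries had 33.5, 20, 53.4, 102 and 359.8, with library 5 far above the rest, and the gene was not called (log2 fold change of 6.14, adjusted p = 0.0511). Pyy had 148, 20, 86.8, 31.6 and 105 in the tuft libraries and 34.4 and 93.6 in the EEC libraries, with overlap, and a mean of 590.2 in enterocyte libraries. Sst, somatostatin of D cells, had 210.2, 147, 62.8, 111 and 819.5 in the tuft libraries and 407 and 539.8 in the EEC libraries, with overlap and a log2 fold change of -0.81 (adjusted p = 0.686). Reg4, a lectin of crypt base secretory cells (chr3:98222156-98236748, plus strand), was the gene higher in tuft cells, at 41359, 134345, 46017, 101149 and 144286 in the tuft libraries and 865 and 510.3 in the EEC libraries, with a log2 fold change of 7.09 ± 1.11 (SE; adjusted p = 3.54e-05). Its mean was 174511 in SecPDG.

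Regulated exocytosis had 12 of 34 genes called higher in EECs (35.3%) and 3 in tuft cells (8.82%), against 1.77% and 3.53% of all genes tested. The median was -1.78. Snap25, a SNARE protein of the plasma membrane, had normalized counts of 31, 68, 48.1, 38.9 and 55.7 in tuft libraries 1 to 5 and 1496 and 4601 in EEC libraries 1 and 2, with a log2 fold change of -5.97 ± 0.70 (SE; adjusted p = 3.16e-07). Every tuft library lay far below both EEC libraries. Cadps, which primes dense core granules, had 46.4, 157, 93.5, 134 and 84.9 in the tuft libraries and 2088 and 5034 in the EEC libraries, with a log2 fold change of -5.11 ± 0.66 (SE; adjusted p = 1.45e-06). Cplx2, which clamps the SNARE complex, had 281, 187, 267, 275 and 341 in the tuft libraries and 2528 and 3393 in the EEC libraries, with a log2 fold change of -3.45 ± 0.33 (SE; adjusted p = 5.1e-09). Rab3c, Unc13a and Stx1a also kept the call without each library, while Syt5, Syt7, Syt13, Rims2 and Baiap3 lost it without EEC library 2. The 3 genes higher in tuft cells were Sytl4, Rab3d and Cadps2, each with its highest mean in SecPDG. The call of Sytl4 held without each library, that of Cadps2 was lost without tuft library 5 or EEC library 1, and that of Rab3d without EEC library 1 or any tuft library but the fourth. Sytl4, granuphilin, had 709, 543, 639.8, 445 and 853 in the tuft libraries and 63 and 9 in the EEC libraries, with a log2 fold change of 4.20 ± 0.64 (SE; adjusted p = 2.1e-05). Vamp2, a vesicle SNARE of many cells, overlapped at a log2 fold change of -0.05 (adjusted p = 0.946).

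Receptors for nutrients, metabolites and hormones were called for 5 of 48 genes in EECs (10.4%) and 2 in tuft cells (4.17%), against 1.77% and 3.53% of all genes tested, with a median of -1.13. Sstr1, a somatostatin receptor, had normalized counts of 0, 44, 18.7, 43.8 and 58.3 in tuft libraries 1 to 5 and 816 and 4608 in EEC libraries 1 and 2, with a log2 fold change of -6.34 ± 0.80 (SE; adjusted p = 1.15e-06). Glp1r, the receptor of glucagon-like peptide 1, had 18.1, 82.7, 86.8, 53.5 and 57.5 in the tuft libraries and 802 and 2879.9 in the EEC libraries, with a log2 fold change of -4.95 ± 0.75 (SE; adjusted p = 2.33e-05). Olfr78, an olfactory receptor that responds to short-chain fatty acids, had 15.5, 24, 16, 28 and 18.6 in the tuft libraries and 495 and 1026 in the EEC libraries, with a log2 fold change of -5.21 ± 1.01 (SE; adjusted p = 0.000583). All 3 separated the groups, and Glp1r and Olfr78 lost the call without EEC library 2. Npy1r and Galr1 were higher in EECs by a log2 fold change of -3.65 (adjusted p = 0.00014) and a log2 fold change of -5.39 (adjusted p = 0.0002), the latter also lost without EEC library 2. Ffar4, a receptor for long-chain fatty acids, was higher in tuft cells, at 377, 351, 358, 278 and 741 in the tuft libraries and 55.4 and 0 in the EEC libraries, with a log2 fold change of 4.00 ± 0.74 (SE; adjusted p = 0.000309), and its mean in SecPDG was 739.1. With DESeq2's size factors neither Ffar4 nor Ptger4, the other gene called in tuft cells, passed, and Ptger4 was also lost without EEC library 2. Sucnr1, the succinate receptor of tuft cells, had 156, 52, 167, 143 and 128 in the tuft libraries and 28.7 and 10.3 in the EEC libraries. Every tuft library lay above both EEC libraries, and the log2 fold change of 2.73 ± 1.55 (SE; adjusted p = 0.279) was far from the threshold. For 17 of the 48 genes the estimated background was 20% or more of the EEC mean.

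Excitability channels were called in both directions, 9 of 41 higher in EECs (22%) and 4 in tuft cells (9.76%). The shares of all genes tested were 1.77% and 3.53%, and the median was -1.45. Cacna2d1, an auxiliary subunit of voltage-gated calcium channels, had normalized counts of 184, 157, 118, 112 and 186 in tuft libraries 1 to 5 and 1698 and 6454 in EEC libraries 1 and 2, with a log2 fold change of -4.75 ± 0.43 (SE; adjusted p = 2.99e-09). Piezo2, the touch channel of enterochromaffin cells, had 11.6, 347, 166, 274 and 77.8 in the tuft libraries and 1857 and 1909 in the EEC libraries, with a log2 fold change of -3.43 ± 0.69 (SE; adjusted p = 0.000819). These were the 2 of the 9 that held without each library. Scn3a, Cacna1a, Cacna1h, Kcnb2, Kcnh6, Hcn4 and Trpm2 lost the call without EEC library 2, in which each of these genes was higher than in library 1. On the tuft side, Kcnk1, a potassium leak channel, had 3646, 2871, 3053, 2798 and 4554 in the tuft libraries and 506 and 836 in the EEC libraries, with a log2 fold change of 2.33 ± 0.41 (SE; adjusted p = 0.000188). Ano1, a calcium-activated chloride channel, had 2093, 1547, 1408, 1252 and 2238 in the tuft libraries and 313 and 154 in the EEC libraries, with a log2 fold change of 2.88 ± 0.52 (SE; adjusted p = 0.000226). Kcnk1 and Ano1 kept the call without each library, and Kcnma1 and Cacna2d2 lost it without EEC library 2 and with DESeq2's size factors. Cacna1d, an L-type calcium channel, was not called (log2 fold change of -1.48, adjusted p = 0.253).

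Of 32 heterotrimeric G protein subunits, 3 were called higher in EECs (9.38%) and 1 in tuft cells (3.12%), against 1.77% and 3.53% of all genes tested, with a median of -0.09. Gnao1 was higher in EECs at normalized counts of 279.9, 179, 242, 205 and 207 in tuft libraries 1 to 5 and 879 and 4724 in EEC libraries 1 and 2, with a log2 fold change of -3.65 ± 0.64 (SE; adjusted p = 0.000168). Gng4 and Gnaz were higher by a log2 fold change of -4.62 (adjusted p = 0.000636) and a log2 fold change of -4.29 (adjusted p = 0.00261). None of these 3 calls held without EEC library 2, and that of Gnaz was also lost without EEC library 1. Of 21 RGS genes, which encode regulators of G protein signals, Rgs13 was called in tuft cells (4.76%) and Rgs4 in EECs (log2 fold change of -5.31, adjusted p = 7.37e-05, lost without EEC library 2), with a median of -0.68.

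Among 27 genes of the apical cytoskeleton and keratins, 4 were called higher in tuft cells (14.8%) and 2 in EECs (7.41%). The shares of all genes tested were 3.53% and 1.77%, and the median was 0.09. Besides Avil and Dclk1, Krt23 was higher in tuft cells by a log2 fold change of 2.79 (adjusted p = 0.0038), lost without EEC library 1. Krt20, a keratin of mature surface epithelium, was higher in EECs at normalized counts of 99.3, 121, 349, 139 and 769 in the tuft libraries and 17851 and 45857 in the EEC libraries, with a log2 fold change of -6.75 ± 0.57 (SE; adjusted p = 1.71e-09). Its mean in enterocyte libraries was 10472, below both EEC libraries. Krt18 and Vil1, keratin and villin of the whole epithelium, were not called (log2 fold change of 1.38, adjusted p = 0.0793 and log2 fold change of 0.56, adjusted p = 0.489). With DESeq2's size factors 4 genes of the list were called higher in EECs, and Krt23 was not called. Of 32 genes of neuronal adhesion and RNA binding, 5 were higher in EECs (15.6%) and none in tuft cells, with a median of -1.59. Celf3, a splicing regulator of neurons, had 16.8, 77.3, 168, 86.3 and 125 in the tuft libraries and 2436 and 7727 in the EEC libraries, with a log2 fold change of -5.74 ± 0.60 (SE; adjusted p = 5.47e-08). Map1b, a microtubule-associated protein of axons, had 209, 252, 284, 304 and 346 in the tuft libraries and 8507 and 18037 in the EEC libraries, with a log2 fold change of -5.57 ± 0.57 (SE; adjusted p = 2.94e-08). Kif1a and Amigo2 were higher by a log2 fold change of -4.80 (adjusted p = 8.4e-05) and a log2 fold change of -6.73 (adjusted p = 2.45e-06), and Nlgn2 lost its call without EEC library 2 or tuft library 2, 4 or 5. Srrm4, a neuronal splicing factor, had 126, 117, 44.1, 120.3 and 25.6 in the tuft libraries and 769.9 and 192 in the EEC libraries, with every EEC library above every tuft library and a log2 fold change of -2.47 (adjusted p = 0.109).

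**Figure D4:**
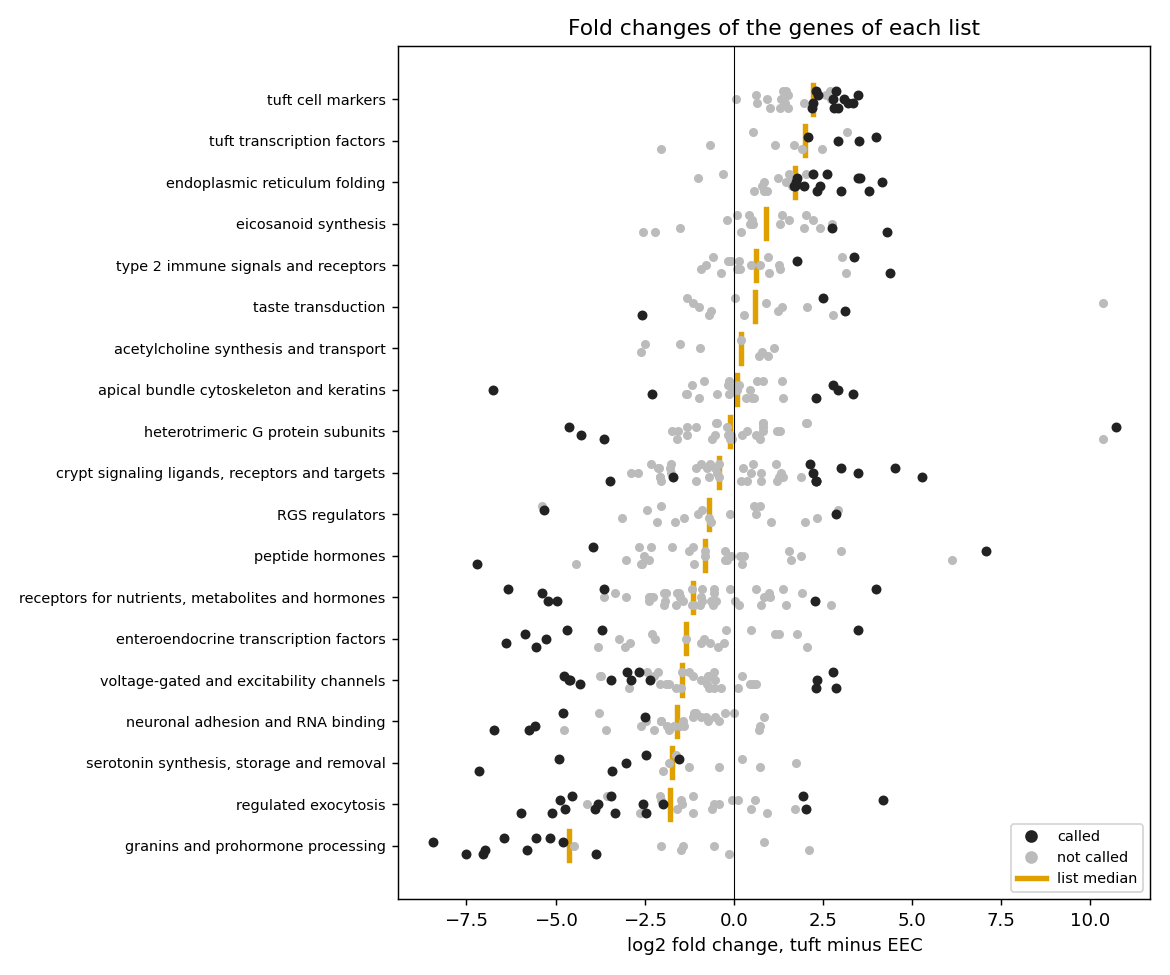
Fitted log2 fold change (tuft minus EEC, x axis) of each gene of 19 lists, called genes in black and others in grey, with the list median as a yellow bar. Medians run from -4.63 for granins to 2.22 for tuft cell markers, and the points beyond 10 are genes at 0 counts in both EEC libraries, whose fitted value is no bound.

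Genes of protein folding in the endoplasmic reticulum were higher in tuft cells for 14 of 27 (51.9%) and in EECs for none. The shares of all genes tested were 3.53% and 1.77%. The median was 1.71, and 25 of the 27 had a log2 fold change above 0. All 14 had their highest mean in SecPDG, and 9 held without each library, while a fit of the tuft and EEC libraries alone called 5. Hspa5, the chaperone BiP (chr2:34771970-34777547, plus strand), had normalized counts of 14039, 15127, 14207, 12986 and 25015 in tuft libraries 1 to 5 and 1863 and 4585 in EEC libraries 1 and 2, with a log2 fold change of 2.34 ± 0.53 (SE; adjusted p = 0.00277). Tuft library 5 was the highest and the others were close together, all above both EEC libraries. Pdia6, a disulfide isomerase, had 5766, 7093, 5835, 5842 and 11954 in the tuft libraries and 859.7 and 431 in the EEC libraries, with a log2 fold change of 3.50 ± 0.56 (SE; adjusted p = 4.77e-05). Creb3l1, a stress-cleaved factor of secretory cells, had 20955, 17262, 17979, 11714 and 21458 in the tuft libraries and 726 and 1284 in the EEC libraries, with a log2 fold change of 4.15 ± 0.61 (SE; adjusted p = 1.27e-05). Ern2, the stress sensor of mucus-making cells, had 5723, 5545, 3577, 4255 and 7254 in the tuft libraries and 424 and 333 in the EEC libraries, with a log2 fold change of 3.80 ± 0.52 (SE; adjusted p = 4.3e-06). Creb3l4, Creld2, Manf, Pdia3 and Eif2ak3 also held without each library, at log2 fold changes of 1.70 to 3.54. Calr, Dnajc3, Sdf2l1 and Hyou1 lost the call without EEC library 1 and also without tuft library 5, the highest tuft library for Hspa5. Sdf2l1 lost it without tuft library 2 or 3 too, Hyou1 without tuft library 1, and Dnajb11 without EEC library 2. Hsp90b1 and Xbp1, with log2 fold changes of 1.65 and 1.58, were above both EEC libraries in every tuft library and were not called. The summed level of the list was 157183 to 300619 in tuft libraries, 30225 and 73247 in EEC libraries and 322319 on average in SecPDG.

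**Figure D5:**
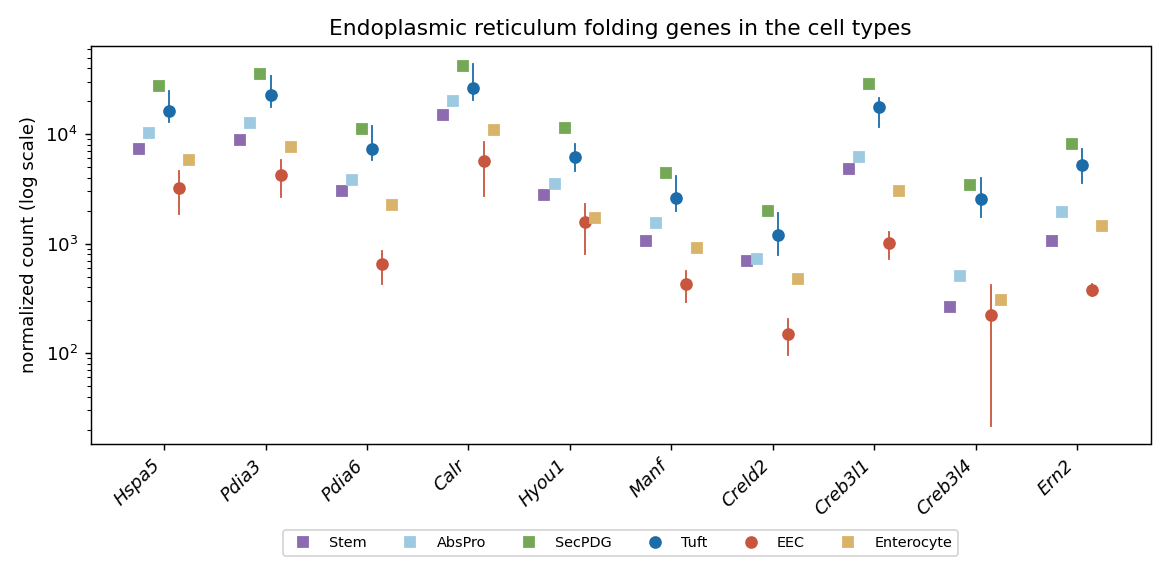
Mean normalized count (log scale) of 10 endoplasmic reticulum folding genes in the 6 cell types, with vertical lines for the range over the 5 tuft and the 2 EEC libraries. For each gene the SecPDG mean is the highest and the tuft libraries lie above the EEC libraries.

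Promoters of these genes are shown because the endoplasmic reticulum stress element (ERSE), which is CCAAT and CCACG with 9 bases of any kind between them, was frequent in them. The stretches lie on the strand of the gene, upstream of its start (RefSeq, GRCm38.p6), with the match in capitals. That of Hspa5 is at chr2:34772000-34772068 (plus strand) and ends 22 bases before the RefSeq start, which lies downstream of the outermost GENCODE start given above. Those of Pdia6 (chr12:17266466-17266534, plus strand) and Creld2 (chr15:88819495-88819563, plus strand) end 55 and 83 bases before it, and that of Calr (chr8:84847050-84847118, minus strand) ends 119 bases before it. In Creld2 and Calr the match reads on the opposite strand.
Hspa5: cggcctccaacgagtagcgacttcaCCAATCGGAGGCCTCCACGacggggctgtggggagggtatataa
Pdia6: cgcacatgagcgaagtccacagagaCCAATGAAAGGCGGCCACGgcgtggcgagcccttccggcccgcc
Creld2: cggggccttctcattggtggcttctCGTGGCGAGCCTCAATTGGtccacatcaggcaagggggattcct
Calr: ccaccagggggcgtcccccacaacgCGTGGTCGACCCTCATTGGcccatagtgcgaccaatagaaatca
The element was found in 8 of 22 folding promoters (36.4%), in 5 of the 10 among called genes (50%), in 7 of 606 promoters of genes higher in tuft cells (1.16%), in none of 305 of genes higher in EECs and in 37 of 27025 of all genes (0.137%). A match of letters is a description of the promoter and does not show a bound factor.

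Crypt signaling genes were called higher in tuft cells for 8 of 44 (18.2%) and in EECs for 2 (4.55%). The shares of all genes tested were 3.53% and 1.77%, and the median was -0.42. Dll1, a Notch ligand of secretory progenitors, had normalized counts of 1731, 1303, 1101, 1333 and 1568 in tuft libraries 1 to 5 and 134 and 215 in EEC libraries 1 and 2, with a log2 fold change of 3.01 ± 0.45 (SE; adjusted p = 1.56e-05). Etv5, a target of fibroblast growth factor signals, had 2546, 2383, 2504, 1536 and 3611 in the tuft libraries and 451 and 560.3 in the EEC libraries, with a log2 fold change of 2.31 ± 0.38 (SE; adjusted p = 7.36e-05). Nov, a matricellular protein, had 5529.6, 1103, 4702, 1088 and 3770.4 in the tuft libraries and 42 and 122 in the EEC libraries, with a log2 fold change of 5.28 ± 0.81 (SE; adjusted p = 2.55e-05), and its tuft libraries spanned a wide range. Notch1 and its target Hes1 were higher in tuft cells by a log2 fold change of 2.23 (adjusted p = 0.000419) and a log2 fold change of 2.30 (adjusted p = 0.00247), the latter lost without EEC library 1. Lgr5, the stem cell receptor, was higher by a log2 fold change of 2.14 (adjusted p = 0.000613), lost without EEC library 2. Bmp2 and Vegfa, secreted growth factors, were higher in EECs by a log2 fold change of -3.48 (adjusted p = 2.59e-05) and a log2 fold change of -1.69 (adjusted p = 0.00129), and both lost the call without EEC library 2. With DESeq2's size factors 5 genes of the list were called higher in EECs and Lgr5 was not called. Stem cell markers (4 of 8) and proliferation markers (4 of 6) were called higher in tuft cells too, of which 1 and 3 held without each library. Cdca7 and Mcm2 lost the call without EEC library 2, and Rnf43 without EEC library 1 or tuft library 2 or 5. Among those called were Slc12a2 (log2 fold change of 4.61, adjusted p = 1.97e-05) and Mki67 (log2 fold change of 3.56, adjusted p = 0.00014).

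Of 8 goblet markers, 4 were called higher in tuft cells (50%, against 3.53% of all genes tested). Muc2, the main mucin, had normalized counts of 1025280.2, 548272, 797911, 399314 and 796307 in tuft libraries 1 to 5 and 26322 and 13498 in EEC libraries 1 and 2, with a log2 fold change of 5.16 ± 1.10 (SE; adjusted p = 0.00151). Every tuft library held many times the Muc2 of either EEC library, and the SecPDG mean was 672175. Retnlb and Agr2 were higher by a log2 fold change of 7.59 (adjusted p = 1.27e-05) and a log2 fold change of 4.79 (adjusted p = 0.000158), and Clca1, Fcgbp, Tff3 and Zg16 were not called. On the EEC side, 7 of 8 enterocyte markers were called higher in EECs (87.5%, against 1.77% of all genes tested), of which 3 held without each library. Car1, carbonic anhydrase 1, had 1692, 575, 1921, 455 and 1383 in the tuft libraries and 3662 and 83885 in the EEC libraries, with a log2 fold change of -5.18 ± 0.64 (SE; adjusted p = 7.16e-07). Cyp2c55, a cytochrome P450 of the colon, had 87.7, 58.7, 226, 69.3 and 73.4 in the tuft libraries and 657 and 14633 in the EEC libraries, with a log2 fold change of -6.22 ± 0.58 (SE; adjusted p = 5.05e-09). Most of both came from EEC library 2, without which Car1 was not called, and the mean in enterocyte libraries was 38534 for Car1 and 6419 for Cyp2c55.

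The genes used to sort the cells describe the gates and are not a finding. Kit had 11399.7, 6995, 9987, 10917 and 10128 normalized counts in tuft libraries and 705 and 691 in EEC libraries, and Cd44 had 4861, 3619, 4178, 4099.5 and 5989 and 564 and 396. Cd24a, on which both gates were set, had 35914, 24890.4, 39385, 40807 and 45258 and 4297 and 15878. Ptprc, which encodes Cd45, had 1692, 1012, 1454, 3173 and 1497 and 575 and 328, although both gates excluded Cd45, and its SecPDG mean was 11.0.

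The largest fitted folds on the tuft side belonged to genes with no counts in the EEC libraries. Of the 10 genes with the largest folds, all 10 had 0 counts in both, so that a lower bound is given against 3 counts over both libraries together. Hist1h2ae, a replication-dependent histone, had 157, 457, 251, 324 and 682 normalized counts in tuft libraries, at least 163-fold higher. Gng11, a G protein gamma subunit, had 276, 144, 149.6, 175 and 381, at least 97.8-fold higher. Lipt2, Siva1, Stk26, Apip, Gins1, Tmem203, 4930513N10Rik and 2310009B15Rik were at least 28.7-fold to 73.3-fold higher. Of the 10, Gins1 lost the call without EEC library 2 and 4930513N10Rik without either EEC library or tuft library 1 or 3. The median exon length of the 10 genes was 921.5 bases, against 3470 over genes with a mean of at least 50. Exon length moved with the fold change over all such genes, from a median of 0.59 for 543 genes of up to 1000 bases to -0.02 for 2396 genes of over 6000 bases. Of the shorter genes 45 were called in tuft cells and 8 in EECs, and of the longer 93 and 114, and the part of length in these calls was not tested. The 10 largest folds on the EEC side were those of Pcsk1n, Chga, Iapp, Tph1, Vgf, Chgb, Krt20, Amigo2, Hmgn3 and 1810006J02Rik, with log2 fold changes of -8.45 to -6.59, of which Iapp and 1810006J02Rik lost the call without EEC library 2. Hmgn3, a nucleosome-binding protein, had 0, 16, 6.7, 46.2 and 43.3 in the tuft libraries and 1698 and 3016 in the EEC libraries, with a log2 fold change of -6.68 ± 1.06 (SE; adjusted p = 4.21e-05).

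Genes shared by the 2 cell types were sought in the same fit, as the mean of tuft cells and EECs against the mean of stem cells, AbsPro and enterocytes. A gene was called shared when it was higher at an adjusted p under 0.01 with a mean of at least 50, when every tuft and EEC library lay above every library of the other 3 types, and when the estimated background was under 20% of the mean in both. That held for 151 genes (0.663% of those tested), of which 123 held without each library. Without EEC library 1 there were 284. Of the 151, 24 were also called between tuft cells and EECs, 17 higher in tuft cells and 7 in EECs, and 127 were not called. The highest mean was in tuft cells for 74, in EECs for 64 and in SecPDG for 13.

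Tuft cell markers held more shared genes than any other list. Of 28 tuft cell markers 17 were shared (60.7%, against 0.663% of all genes tested), with EEC means of 9.79% to 49.5% of the tuft means (median 19.2%). All 17 had their highest mean in tuft cells. The contrast takes the mean of both cell types, so that the tuft libraries carry much of its value for these genes. Among the 10 genes with the largest fitted values in this contrast were Rgs13, Hmx3, Gnat3, Dclk1, Sh2d7, Pik3r5, Bmx, Fyb and Trpm5. Dclk1 had mean normalized counts of 23147 in tuft cells and 3024 in EECs, against 12.9 in stem cells, 14.7 in AbsPro, 196 in enterocytes and 162 in SecPDG. Trpm5 had means of 10280.1 in tuft cells and 1497 in EECs, against 12.9, 30.2, 153 and 162 in the same order. Rgs13, Hmx3 and Gnat3 had 0 counts in stem cells and AbsPro. The place of the EEC libraries above those of stem cells, AbsPro and enterocytes follows from the rule that chose these genes. Their EEC means lay below their tuft means, which the rule does not set. Whether the transcripts in the EEC libraries came from EECs or from tuft cells that met the EEC gate was not tested. Of the other lists, 5 of 16 taste transduction genes, 4 of 20 eicosanoid genes and 3 of 12 tuft transcription factors were shared. The tuft markers summed to 4510 and 9575 in EEC libraries 1 and 2, against a mean of 75 in stem cells and 759 in enterocytes.

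Of the shared genes outside the tuft markers, Prox1, a homeobox transcription factor, had normalized counts of 681, 461, 863, 914 and 574 in tuft libraries 1 to 5 and 636 and 1276 in EEC libraries 1 and 2. St18, a zinc finger transcription factor, had 2304, 1184, 2429.5, 3743 and 1950.2 in tuft libraries 1 to 5 and 1003 and 2318 in EEC libraries 1 and 2. Prox1 and St18 both overlapped between the groups. Chat and Tubb2b, a neuronal tubulin, were shared as well, with Tubb2b at 236, 295, 319, 508 and 365 in the tuft libraries and 422 and 531 in the EEC libraries. Ffar2, a receptor for short-chain fatty acids, had 1716, 704, 1436, 536 and 1891 in the tuft libraries and 493 and 737 in the EEC libraries. Ffar3, another such receptor, had 95.4, 188, 466, 427 and 240.5 in the tuft libraries and 86 and 62.8 in the EEC libraries, both below every tuft library. Ptprn2, a granule membrane phosphatase, had 4731, 3763, 4373, 2662 and 5723 in the tuft libraries and 2573 and 9896 in the EEC libraries, and its mean was 5714 in SecPDG. Syt7, a calcium sensor of granule release, was shared and also higher in EECs (log2 fold change of -1.97, adjusted p = 0.000938), as was Cacna1h, a T-type calcium channel (log2 fold change of -2.89, adjusted p = 0.000197), both lost as differences without EEC library 2. Sst was shared by this rule, with tuft library 5 the highest of all 7.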

How the data were processed

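Gene expression was measured by RNA-seq in 22 libraries of sorted mouse colon cells, each assigned to 1 of 6 cell types by its label. The deposited counts are raw counts per gene, made by the authors from trimmed paired-end reads with STAR 2.5.2a on mm10 and HTSeq 0.6.1p1, without strand, so that reads of overlapping antisense genes cannot be told apart. Entries that name no gene, 53.9% to 91.6% of the records of a library, stayed out of library sizes and tests. Tables of splicing, polyadenylation and the authors' own comparisons were not used.

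Tuft cells were compared with EECs by the quasi-likelihood F test of edgeR 4.0.16 (R 4.3.3), in 1 fit of the 22 libraries with cell type as the only term, with TMM factors and filterByExpr, which kept 22781 of 24421 genes. Calls needed a Benjamini-Hochberg adjusted p below 0.01 and 50 or more normalized counts on average (counts divided by the library total times its TMM factor, times the mean total). This cutoff follows the study, which used DESeq2 1.16.1. DESeq2 1.42.0 served here as an alternative, beside other normalizations, filters, thresholds, thinned counts and fits without each library. Exon lengths and coordinates came from GENCODE on GRCm38, the assembly of mm10, with 98.5% of genes matched, and promoters from RefSeq. The background of a gene was estimated from reads per kilobase on 1500 genes of silent families.

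Counts on genes were 4122122 to 22462518 per library. In simulated counts of the 22 libraries, with 5 tuft and 2 EEC libraries compared, every cell type had the same spread for a gene. The test recovered 2%, 28%, 70% and 88% of genes changed 2-, 4-, 8- and 16-fold (50 genes of each, of 22047). Most 2- and 4-fold changes were thus missed. The wider spread between the real EEC libraries was not simulated, so that these shares do not measure how many real changes were found. P-values rest on the spread within cell types, pooled over the 22 libraries of 6 cell types, and not on that of the tuft and EEC libraries alone. Counting intervals and bounds cover counting error only.

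The cell types, gene lists and motifs were chosen with earlier results of these data known, and lists are described by counts and medians without a test. Named genes were the 10 with the largest fitted fold in each direction and in the shared contrast (called, groups not overlapping, background under 20% of the higher mean), the preset members of each list whatever their values, and other members led by the largest folds among the called. A few list members are counted but not named or reported here.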

Additional observations from a re-analysis of the deposited data

Results flagged for a closer look

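In each set of values over the 5 tuft libraries, the highest or lowest library was compared with the others by Dixon's ratio of its gap to the whole range, at the 95% critical value of 0.71. Of 176 sets, 21 passed. Chance gives about 1 in 20 for normal values in independent sets. These sets share the same 5 libraries, and some sums hold genes that were also tested alone. The number expected by chance was therefore not measured.

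Most were high values of tuft library 5. Its summed EEC markers were 28638 normalized counts, and its summed D cell markers were 901. It held 9477.7 normalized counts of Chga, 17421.6 of Chgb, 1458.7 of Tph1, 819.5 of Sst, 359.8 of Gcg, 119.3 of Pcsk1n, 74.3 of Scg5 and 34.5 of 1810006J02Rik, all genes of endocrine cells or, for the last, higher in EECs. It also held 1629.3 of Maoa, 740.8 of Ffar4, 25015.4 of Hspa5, 40140.4 of Hsp90b1 and 31352.2 of Epcam. The same library had the most counts on genes, 20892532, and the lowest summed endothelial markers, 244. Without it, 600 genes were called higher in tuft cells and 346 higher in EECs, beside 805 and 404 with it.

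Tuft library 4 was high in Chat, at 1538.7 normalized counts. Tuft library 1 was high in Fgf12, at 339.2, and in Lipt2, at 348.3, and was at 0 for Syt13, which the other 4 tuft libraries held at a low level.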

How the results depend on the processing

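The comparison rests on 2 EEC libraries, with 4122122 and 13132315 counts on genes. For tuft versus EEC, with all libraries, 1209 genes were called, 805 higher in tuft cells and 404 higher in EECs. The counts in the same order were 1844, 866 and 978 with DESeq2's size factors in the edgeR fit, 1890, 1142 and 748 with library totals, 1897, 1299 and 598 with upper-quartile factors, 2697, 1317 and 1380 with DESeq2's Wald test, 486, 207 and 279 with only the tuft and EEC libraries in the fit, and 2241, 1557 and 684 at an adjusted p under 0.05. The share of calls higher in tuft cells, 66.6%, was 47% and 48.8% with the size factors and the Wald test of DESeq2 and 42.6% with only the tuft and EEC libraries. Leaving out 1 library gave totals of 946 to 2733, 600 to 2573 higher in tuft cells, 160 to 650 higher in EECs and 151 to 284 shared genes. Tuft library 4 moved the tuft count to 1384, EEC library 2 moved both counts, and EEC library 1 moved the EEC count. Genes called in every such fit, a setting chosen after seeing the data, numbered 561, 448 and 113, and 123 of the 151 shared genes. Without EEC library 2, 124 of the 404 EEC calls were kept and 19 were called in the other direction, among the named genes Maoa, at a log2 fold change of 1.39 (range over the fits without 1 library -3.28 to 1.39). The cause of these changes was not tested. DESeq2's size factors moved the median log2 fold change of the more abundant genes from 0.21 to -0.27, and 16 named genes lost the call under them, all higher in tuft cells.

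Over the 246 named genes and their alternatives, 3552 of 3935 comparisons kept the sign and the side of the threshold, 216 lost the call, 104 gained it, 1 turned with a call, and 62, in 31 genes, changed sign without a call in either fit. Of 580 counts of lists, 505 stayed within 1.5 times the reported count. Replicate numbers are shared by 2 pairs of tuft and EEC libraries, whose deviations from their group means correlated at -0.115 and -0.373. With 2 EEC libraries each deviation is the negative of the other, so that these values can neither show nor exclude pairing. With the replicate block, 959 genes were called in tuft versus EEC, 624 higher in tuft cells and 335 higher in EECs, and 149 were shared.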
